A study of Rattus norvegicus with 9 samples.

Results

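The Hox genes of rat dorsal root ganglion (DRG) were followed across sham, spared nerve injury (SNI) and SNI + G15 rats. The members were every gene whose symbol is Hoxa, Hoxb, Hoxc or Hoxd followed by a number, which gave 37 of the 20194 genes in the deposited table. Of these, 10 lie in cluster A, 10 in cluster B, 8 in cluster C and 9 in cluster D. The comparison asked whether the 3 groups carried the same lumbar segment code. The study set male Sprague Dawley rats with a sham operation against rats with SNI, in which branches of the sciatic nerve are injured and 1 branch is left intact, and against SNI rats given G15, a blocker of the G protein-coupled oestrogen receptor. Each group had 3 RNA-Seq libraries. Catheters were placed intrathecally on day 5 after SNI, and drugs were dissolved in DMSO and given for 24 h. The sample records give 2% DMSO, and the sources differ on this share. The sham and SNI samples are labelled as controls of the G15 samples. The methods describe the collection of the L4-6 DRGs of the injured side. The passage on sequencing names DRG tissue without the share of each segment in a library, and the sources differ on how many rats were sequenced, so that a pooling of animals cannot be told. A difference between groups in the ganglia collected and a difference in expression within a ganglion therefore cannot be told apart in these data.

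Hox genes encode homeodomain transcription factors that give cells their position along the head-to-tail axis. They sit in 4 clusters, and their order along a cluster follows the order of the body levels at which they start to be expressed. Genes of the same paralog number in different clusters descend from 1 ancestral gene. Low paralog numbers are first used in the hindbrain, middle numbers at cervical and thoracic levels, numbers 9 and 10 at thoracic and lumbar levels, and number 11 and above at lower lumbar and sacral levels. In the spinal cord and its ganglia this code persists after development and helps to set which neurons a segment forms.

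The libraries held between 18484557 and 18756736 estimated reads. Atf3 and Gal, which injured sensory neurons switch on, checked the labels. Atf3 lay between 3.61 and 4.30 FPKM (fragments per kilobase of transcript, scaled to the size of the library, a unit corrected for gene length) in sham, between 138.34 and 143.20 FPKM in SNI and between 132.39 and 139.84 FPKM in SNI + G15. Gal lay between 8.26 and 10.43 FPKM in sham and at 210.20 FPKM or more in all 6 injured libraries. The summed level of 16 sensory neuron markers ran from 16443 to 16881 FPKM in sham, from 13817 to 14257 FPKM in SNI and from 13943 to 14783 FPKM in SNI + G15, and all 16 passed the filter on low values. The third SNI + G15 library stood furthest from its group.

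Most of the code was shared. An FPKM of at least 1 was reached in every library by 25 members, in some libraries by 5 members (Hoxa2, Hoxa3, Hoxa6, Hoxc11 and Hoxd11) and in no library by 7 members. The last included Hoxb1 at the anterior end and Hoxa11, Hoxb13, Hoxc13, Hoxd12 and Hoxd13 at the posterior end. By group, 26 members reached this level in all 3 sham libraries, 27 in all 3 SNI libraries and 25 in all 3 SNI + G15 libraries. Libraries of a group lay close together: the median coefficient of variation of the 30 members past the filter was 9.09% in sham, 6.71% in SNI and 9.31% in SNI + G15. Hoxc11 and Hoxd11 reached it in all 3 libraries in SNI alone, and Hoxa3 in sham alone.

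**Figure D1:**
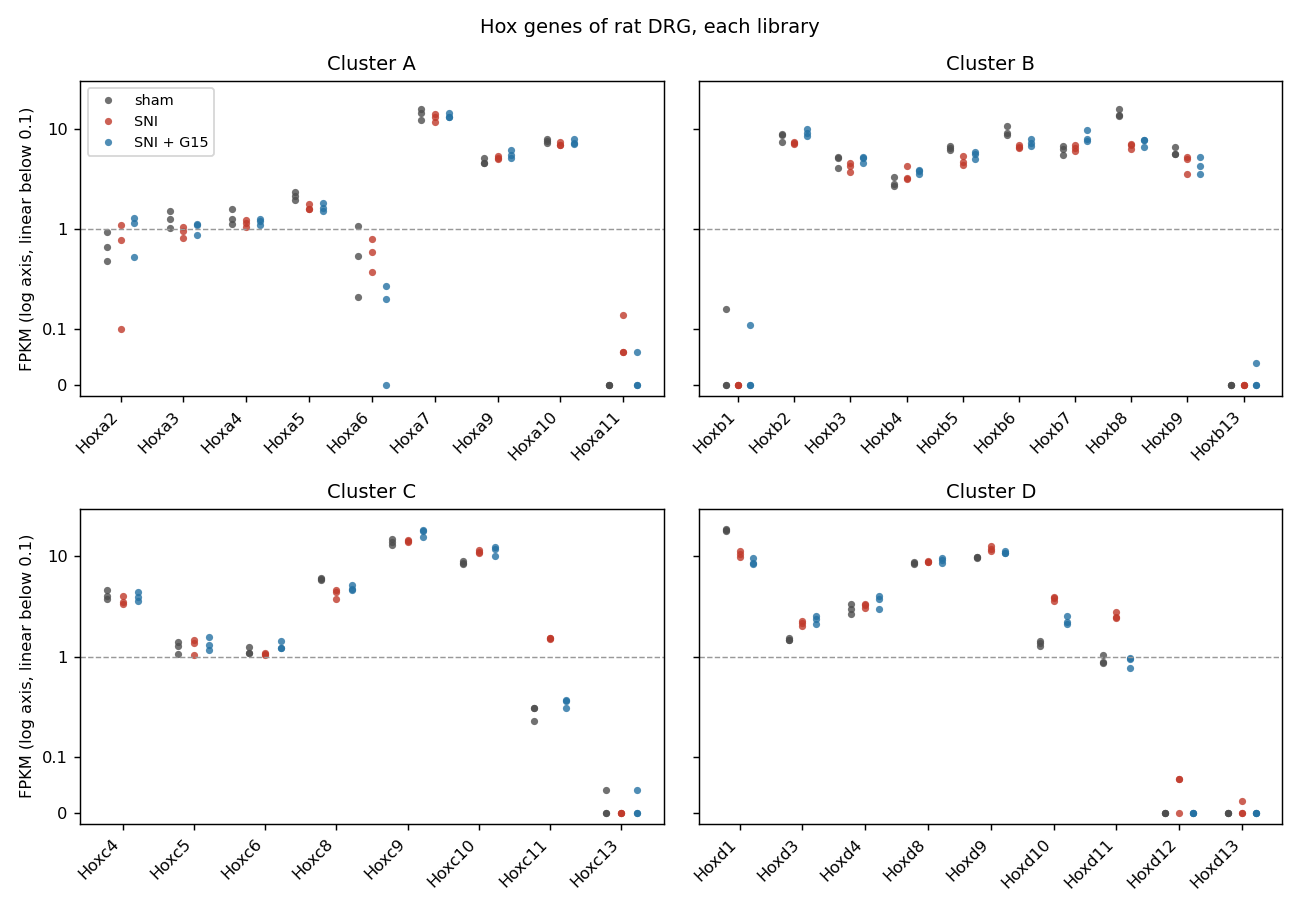
FPKM of the Hox genes reported here (y axis, log scale, linear below 0.1) in each of the 9 libraries, by cluster and in order of paralog number (x axis). Grey points are sham, red points SNI and blue points SNI + G15 libraries, and the dashed line marks an FPKM of 1. Hoxc11 stood at 1.49 to 1.55 FPKM in SNI and at 0.37 FPKM or below in the other libraries.

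The 5 most abundant members by mean FPKM were Hoxc9, Hoxa7, Hoxd1, Hoxd9 and Hoxc10. Hoxc9, a thoracic to lumbar paralog, was at 14.07, 15.08 and 13.08 FPKM in sham, at 14.27, 14.61 and 14.07 FPKM in SNI and at 15.71, 17.84 and 18.46 FPKM in SNI + G15. The 3 SNI + G15 libraries stood above the other 6. Hoxa7, a cervical to thoracic paralog, was at 14.53, 12.35 and 15.91 FPKM in sham, at 13.24, 11.71 and 14.10 FPKM in SNI and at 13.16, 14.31 and 13.26 FPKM in SNI + G15, and its groups overlapped in every comparison. Its log2 fold changes were -0.14 ± 0.11 (SE) for SNI against sham, 0.05 ± 0.09 for SNI + G15 against SNI and -0.11 ± 0.10 for SNI + G15 against sham, none of which was called. Beside a main expression of paralogs 7 to 10, Hoxd1 was thus an anterior gene among the 5 most abundant members.

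A member was called when its Benjamini-Hochberg adjusted p in edgeR's quasi-likelihood test, taken over all 14305 tested genes, lay below 0.05. In SNI against sham 13 of 30 tested members (43.3%) were called, beside 45.7% of all tested genes. Of these 6 were higher and 7 lower, where 23.3% and 22.4% of all genes were. Between the injured groups, 8 of 30 (26.7%) were called in SNI + G15 against SNI, beside 15.2% of all tested genes. Of these 5 were higher and 3 lower, where 7.98% and 7.25% of all genes were. For SNI + G15 against sham the count was 12 of 30 (40.0%), beside 43.2%, with 5 higher and 7 lower where 21.4% and 21.9% of all genes were. The share of Hox genes called was therefore near that of all genes in both comparisons with sham. Without the first SNI library the count in SNI + G15 against SNI was 4, and without the second or the third it was 3. Without the second or the third sham library the count in SNI + G15 against sham was 7. The 2 comparisons with SNI share the SNI libraries, and the 2 comparisons with sham share the sham libraries. In bulk tissue, fewer cells of a type and less RNA per cell cannot be told apart.

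The calls were also counted by paralog number, in bands chosen after the values were seen. In SNI against sham, the 21 tested members with paralog numbers 1 to 8 had 1 call higher and 7 lower, while the 5 tested members numbered 10 or 11 had 4 higher and 0 lower. Hoxc11, which passed the filter through the SNI libraries alone, is among the 5. Their median log2 fold changes were -0.23 and 1.43, and that of all tested genes was 0.00. Between the injured groups the same 21 had, in SNI + G15 against SNI, 4 calls higher and 0 lower, and the same 5 had 0 higher and 3 lower. Their medians were 0.15 and -0.71, beside 0.01 for all genes. The 21 had, in SNI + G15 against sham, 2 calls higher and 6 lower and the 5 had 2 higher and 0 lower. The 4 tested members numbered 9 had 1 call, 1 call and 2 calls in the 3 comparisons. Over all tested genes, the shares called higher were 23.3%, 7.98% and 21.4% in the same order. The shares called lower were 22.4%, 7.25% and 21.9%.

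**Figure D2:**
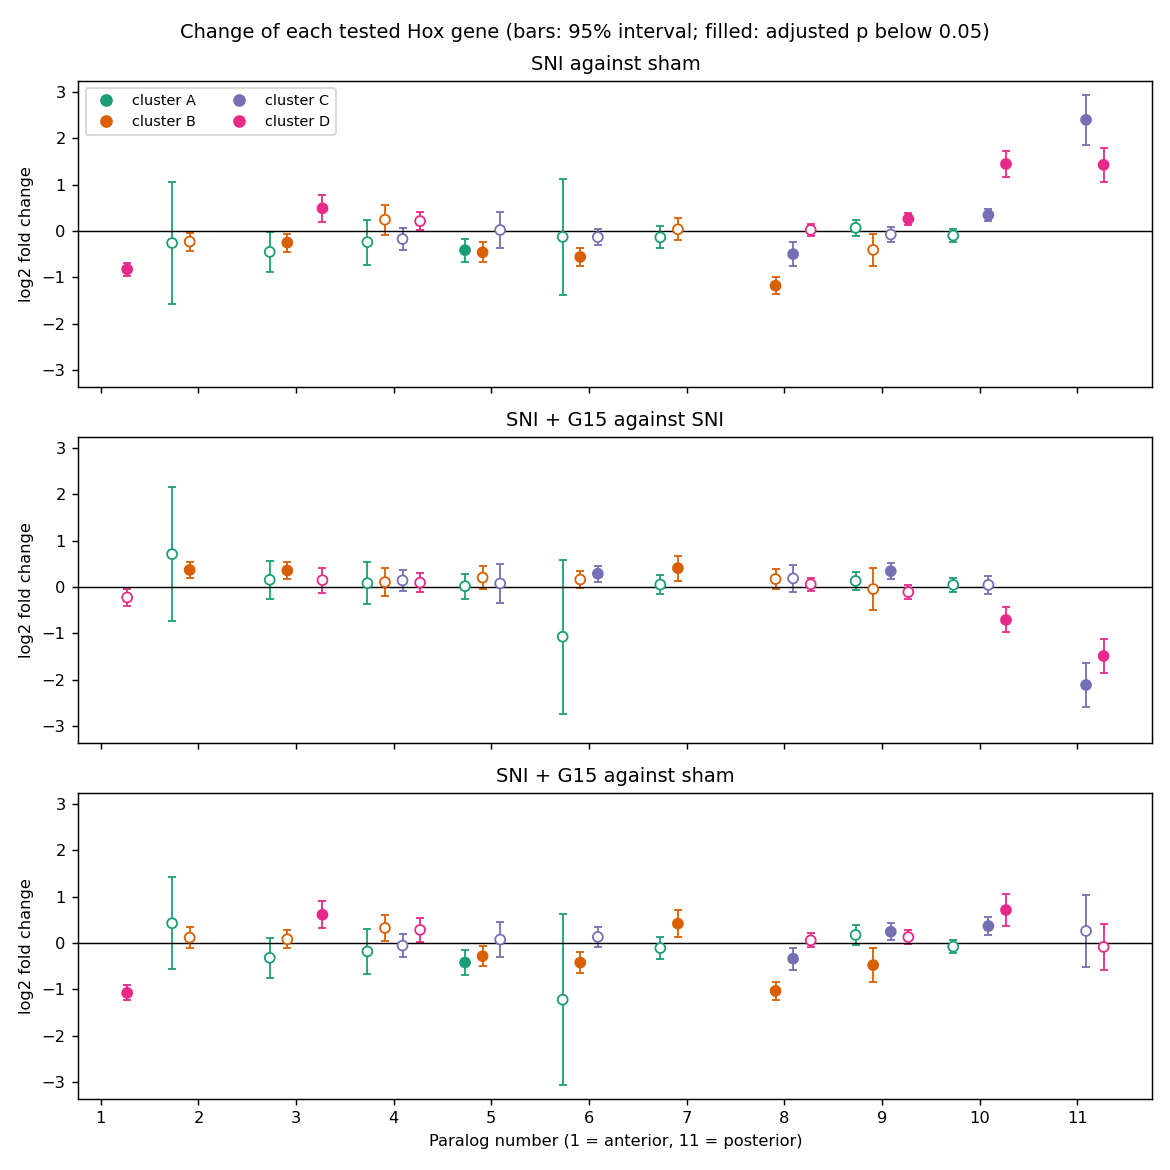
Log2 fold change (y axis) of the 30 tested Hox genes by paralog number (x axis) in the 3 comparisons, coloured by cluster, with 95% intervals as bars. Filled points have an adjusted p below 0.05. Hoxc11 at 2.40 and Hoxd10 and Hoxd11 at 1.45 and 1.43 lie above the rest in SNI against sham, and the same 3 genes lie at -2.12, -0.71 and -1.49 in SNI + G15 against SNI.

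Hoxc11 and Hoxd11, which belong to the lower lumbar and sacral end of the code, were higher in SNI than in both other groups. Hoxc11 was at 0.23, 0.31 and 0.31 FPKM in sham, at 1.55, 1.54 and 1.49 FPKM in SNI and at 0.31, 0.37 and 0.36 FPKM in SNI + G15. The 3 SNI libraries stood above the other 6, and sham and SNI + G15 met at 0.31 FPKM. These levels rested on few reads: 8, 11 and 11 counts in sham, 55, 55 and 53 in SNI and 11, 13 and 13 in SNI + G15. Hoxc11 rose 5.27-fold in SNI against sham, a log2 fold change of 2.40 ± 0.24 (SE, n = 3 per group, edgeR adjusted p = 1.86e-05), the largest change of any tested member in that comparison. Since it reached an FPKM of 1 in the SNI libraries alone, it was also fitted without the filter, which gave 2.39 (edgeR adjusted p = 7.87e-06). It fell by 2.12 on the log2 scale (SE 0.21) in SNI + G15 against SNI (edgeR adjusted p = 0.00049), again the largest change. It was not called in SNI + G15 against sham, with a 95% interval of the log2 fold change from -0.53 to 1.05.

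Hoxd11 was at 0.87, 0.89 and 1.03 FPKM in sham, at 2.47, 2.78 and 2.42 FPKM in SNI and at 0.98, 0.78 and 0.94 FPKM in SNI + G15. The SNI libraries again stood apart, and the other 2 groups overlapped. The gene rose 2.69-fold in SNI against sham (log2 fold change 1.43 ± 0.16, edgeR adjusted p = 4.46e-05) and fell by 1.49 on the log2 scale (SE 0.17) in SNI + G15 against SNI (edgeR adjusted p = 0.000759). Its 95% interval in SNI + G15 against sham ran from -0.58 to 0.40. Within a library, the ratio of Hoxd11 to its cluster neighbour-but-one Hoxd9 lay between 0.0884 and 0.104 in sham, between 0.209 and 0.218 in SNI and between 0.0714 and 0.0914 in SNI + G15.

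Hoxa11, the remaining paralog of that number, lay below the filter. Its counts were 0, 0 and 0 in sham, 8, 3.55 and 3.55 in SNI and 0, 3.55 and 0 in SNI + G15. Over the group, SNI held 15.1 counts against 0 in sham, which allows a floor of 3 counts over the 3 sham libraries. Against that floor Hoxa11 was 5.03-fold higher in SNI, leaving out the error of the SNI counts. In the fit over all genes with at least 1 count, it was higher in SNI than in sham (edgeR adjusted p = 0.00751) and did not pass the test in SNI + G15 against SNI (edgeR adjusted p = 0.249). Counts of 3.55 are reads shared out between genes or transcripts, so its level is uncertain. Of the members numbered 12 and 13, Hoxd12 had 1, 0 and 1 counts in SNI and 0 elsewhere, Hoxd13 had 1 count in 1 SNI library, Hoxb13 had 1 count in 1 SNI + G15 library, and Hoxc13 had 1 count in 1 sham and 1 count in 1 SNI + G15 library. At this depth these sacral and tail-level members were not detectable in any group beyond the floor of 3 counts. Hoxa13 and Hoxc12 were not analysed here.

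The paralogs numbered 10 mark lumbar levels, where they take part in forming the limb motor columns, and they did not move as 1 group. Hoxd10 was at 1.38, 1.42 and 1.28 FPKM in sham, at 3.96, 3.58 and 3.83 FPKM in SNI and at 2.57, 2.20 and 2.11 FPKM in SNI + G15. None of the 3 groups overlapped, and SNI + G15 lay between the other 2. Hoxd10 rose 2.72-fold in SNI against sham (log2 fold change 1.45 ± 0.13, edgeR adjusted p = 6.6e-06) and fell by 0.71 on the log2 scale (SE 0.12) in SNI + G15 against SNI (edgeR adjusted p = 0.00541). It was 1.64-fold higher in SNI + G15 than in sham (log2 fold change 0.71 ± 0.16, edgeR adjusted p = 0.0044).

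Hoxc10 was at 8.58, 8.42 and 9.01 FPKM in sham, at 11.73, 11.10 and 10.87 FPKM in SNI and at 11.94, 10.11 and 12.38 FPKM in SNI + G15. Both injured groups lay above sham and overlapped each other. It rose 1.27-fold in SNI (log2 fold change 0.34 ± 0.06, edgeR adjusted p = 0.0011) and 1.29-fold in SNI + G15 (0.37 ± 0.09, edgeR adjusted p = 0.00696), both against sham, and its interval in SNI + G15 against SNI ran from -0.14 to 0.23. Hoxa10, by contrast, stayed between 6.93 and 7.90 FPKM in all libraries, and the 95% intervals of its log2 fold change ran from -0.23 to 0.03, from -0.10 to 0.19 and from -0.22 to 0.07 in the 3 comparisons. Hoxd9, the fourth most abundant member, was at 9.84, 9.67 and 9.89 FPKM in sham, at 11.82, 12.75 and 11.38 FPKM in SNI and at 10.72, 10.92 and 11.35 FPKM in SNI + G15. It rose 1.20-fold in SNI against sham (log2 fold change 0.26 ± 0.06, edgeR adjusted p = 0.0055), while its change of -0.11 ± 0.06 in SNI + G15 against SNI was not called.

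**Figure D3:**
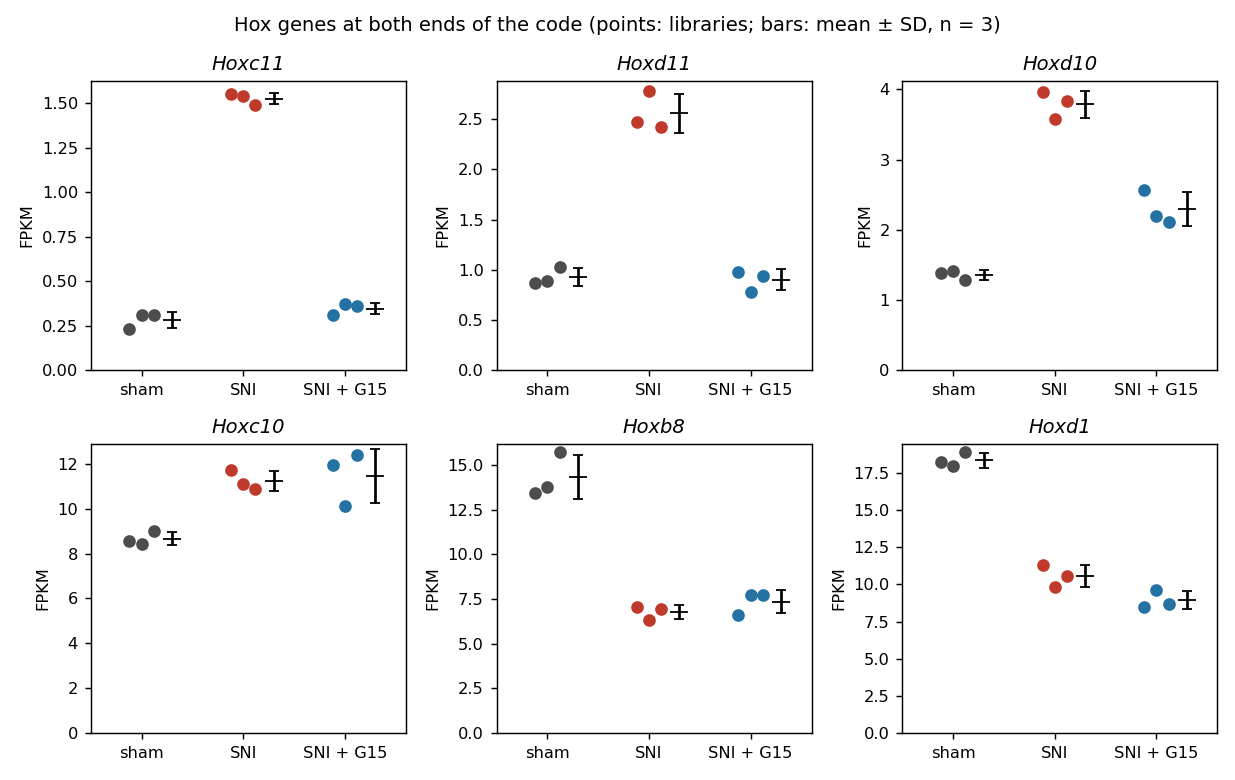
FPKM (y axis) of 6 Hox genes in the 3 sham, 3 SNI and 3 SNI + G15 libraries (points), with the mean and SD of each group beside them. Hoxc11 and Hoxd11 are high in the SNI libraries, Hoxd10 is at 3.58 to 3.96 FPKM in SNI and at 2.11 to 2.57 FPKM in SNI + G15, Hoxc10 is above sham in both injured groups, and Hoxb8 and Hoxd1 are below sham in both.

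Hoxd11, Hoxd10 and Hoxd9 follow each other in cluster D, and Hoxd1 closes its anterior end. The 250 bases before their annotated starts are shown because Hoxd11 and Hoxd10 had the largest rises of the cluster in SNI, Hoxd9 lies next to them and Hoxd1 fell. They are from RefSeq, build GRCr8, plus strand, at chr3:79992144-79992393 for Hoxd11, chr3:80001697-80001946 for Hoxd10, chr3:80007756-80008005 for Hoxd9 and chr3:80072791-80073040 for Hoxd1. Capitals mark CACGTG, the E-box, and in Hoxd11 also 1 match on the minus strand to TGATNNAT, the site at which Hox proteins bind with a Pbx partner. The build of the deposited values is not known, so these coordinates belong to the reference alone.
Hoxd11: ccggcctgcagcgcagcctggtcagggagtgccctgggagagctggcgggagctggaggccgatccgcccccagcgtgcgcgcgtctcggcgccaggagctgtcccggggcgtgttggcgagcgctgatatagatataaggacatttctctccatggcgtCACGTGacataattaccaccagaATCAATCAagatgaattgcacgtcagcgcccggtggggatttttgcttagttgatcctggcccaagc
Hoxd10: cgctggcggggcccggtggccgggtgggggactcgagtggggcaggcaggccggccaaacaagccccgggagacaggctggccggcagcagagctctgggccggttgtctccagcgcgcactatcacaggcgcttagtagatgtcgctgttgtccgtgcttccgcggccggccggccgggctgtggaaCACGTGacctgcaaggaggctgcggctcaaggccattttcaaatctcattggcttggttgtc
Hoxd9: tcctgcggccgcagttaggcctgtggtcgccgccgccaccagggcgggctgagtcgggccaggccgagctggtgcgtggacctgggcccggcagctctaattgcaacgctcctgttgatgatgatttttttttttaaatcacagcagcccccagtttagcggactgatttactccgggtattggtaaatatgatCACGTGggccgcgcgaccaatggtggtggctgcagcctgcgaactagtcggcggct
Hoxd1: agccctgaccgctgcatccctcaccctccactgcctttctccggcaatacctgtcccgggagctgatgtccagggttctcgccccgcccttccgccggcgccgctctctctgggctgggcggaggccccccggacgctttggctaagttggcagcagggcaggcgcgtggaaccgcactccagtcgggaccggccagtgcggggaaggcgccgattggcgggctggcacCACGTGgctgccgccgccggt

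Each of the 4 sequences held CACGTG once, and only Hoxd11 among them held TGATNNAT. Both strands were searched, and the motifs did not overlap. Of the 33469 promoter windows of the same length in the reference, 5.59% held CACGTG and 7.96% held TGATNNAT. A promoter sequence was at hand for 19 members, and with an entry for Hoxa10 under another identifier 20 Hox genes had one. CACGTG was found in 8 of these 20 (Hoxa4, Hoxa7, Hoxa9, Hoxd1, Hoxd3, Hoxd9, Hoxd10 and Hoxd11), 5 of them among the 9 of cluster D, and TGATNNAT in 3 (Hoxa2, Hoxb1 and Hoxd11). The E-box was therefore present both in genes that rose and in a gene that fell. The motifs were chosen after the sequences had been read, and a match is not evidence of binding. The sequences were rich in G and C, at 61.2% for Hoxd11, 67.2% for Hoxd10, 60.0% for Hoxd9 and 71.6% for Hoxd1.

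At the anterior end, Hoxd1, which in the mouse is expressed in nociceptive neurons and guides their connections, was lower in both injured groups. It was at 18.21, 17.97 and 18.94 FPKM in sham, at 11.31, 9.81 and 10.57 FPKM in SNI and at 8.48, 9.65 and 8.71 FPKM in SNI + G15. No sham library overlapped an injured library, and the injured groups did not overlap each other. Hoxd1 fell by 0.83 on the log2 scale (SE 0.06) in SNI (edgeR adjusted p = 2.13e-06) and by 1.08 (SE 0.07) in SNI + G15 (edgeR adjusted p = 2.15e-06), both against sham. Its lower level in SNI + G15 than in SNI, at -0.23 ± 0.08, did not pass the test (edgeR adjusted p = 0.0834). The only larger absolute change of a tested member in SNI + G15 against sham was that of the low and variable Hoxa6, whose -1.22 ± 0.82 was not called. Sensory neuron markers moved alongside: 11 of 16 fell and 2 rose in SNI, and 12 fell and 2 rose in SNI + G15, both against sham. The shares called were 81.2% and 87.5%, beside 45.7% and 43.2% of all tested genes. The list medians were -0.41 and -0.54, beside 0.00 for all genes. The part of these markers in the Hoxd1 result was not tested.

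Hoxb8, a thoracic-level gene, had the largest fall in SNI. It was at 13.44, 13.78 and 15.73 FPKM in sham, at 7.04, 6.33 and 6.92 FPKM in SNI and at 6.59, 7.73 and 7.72 FPKM in SNI + G15. The sham libraries stood above all 6 injured libraries, which overlapped. It fell by 1.18 on the log2 scale (SE 0.08) in SNI (edgeR adjusted p = 1.13e-06) and by 1.03 (SE 0.09) in SNI + G15 (edgeR adjusted p = 1.08e-05), both against sham, and the change of 0.17 ± 0.09 between the injured groups was not called. The fall lay in 1 of its 2 annotated transcripts: XM_006247175.3 was at 13.15 to 14.32 FPKM in sham, 5.02 to 6.40 FPKM in SNI and 6.04 to 6.97 FPKM in SNI + G15. NM_001191649.1 lay between 0.24 and 1.45 FPKM with overlapping groups.

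The other falls in SNI were smaller and came from paralogs numbered 3 to 8, which in the ganglia and cord cover cervical to thoracic levels. Hoxc8, which takes part in naming thoracic and lower cervical segments, was at 6.12, 5.94 and 5.78 FPKM in sham, at 4.64, 3.75 and 4.46 FPKM in SNI and at 4.58, 4.74 and 5.18 FPKM in SNI + G15. The sham libraries lay above both injured groups, with log2 fold changes of -0.50 ± 0.11 in SNI (edgeR adjusted p = 0.00471) and -0.34 ± 0.11 in SNI + G15 (edgeR adjusted p = 0.0274). Hoxb6 was at 8.65, 9.14 and 10.78 FPKM in sham, at 6.40, 6.52 and 6.85 FPKM in SNI and at 7.21, 6.82 and 7.88 FPKM in SNI + G15. It too lay lower in every injured library than in any sham library, at -0.56 ± 0.09 (edgeR adjusted p = 0.000493) and -0.42 ± 0.10 (edgeR adjusted p = 0.00703). Hoxb5 was at 6.49, 6.12 and 6.76 FPKM in sham, at 4.69, 5.35 and 4.32 FPKM in SNI and at 4.95, 5.81 and 5.59 FPKM in SNI + G15. Its falls were 0.46 ± 0.10 (edgeR adjusted p = 0.00311) and, weaker, 0.28 ± 0.10 on the log2 scale (edgeR adjusted p = 0.0419).

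Hoxa5, which patterns the neck and thorax, was at 1.97, 2.16 and 2.35 FPKM in sham, at 1.77, 1.60 and 1.58 FPKM in SNI and at 1.50, 1.63 and 1.82 FPKM in SNI + G15. It fell by 0.42 in both comparisons with sham (SE 0.11 and 0.12, edgeR adjusted p = 0.0107 and 0.0201), and at 0.02 ± 0.12 it was the tested member with the smallest change in SNI + G15 against SNI. Hoxb3 was at 5.19, 4.11 and 5.17 FPKM in sham, at 4.23, 3.71 and 4.53 FPKM in SNI and at 4.55, 5.14 and 5.19 FPKM in SNI + G15. Its fall of 0.25 ± 0.09 in SNI (edgeR adjusted p = 0.039) went with overlapping groups and was lost under 8 of 15 alternatives, among them those without the second or the third SNI library or without the first or the third sham library. Hoxb9 was at 6.55, 5.66 and 5.66 FPKM in sham, at 5.24, 3.58 and 4.96 FPKM in SNI and at 3.52, 4.29 and 5.22 FPKM in SNI + G15. Its lower level was called in SNI + G15 against sham (-0.48 ± 0.16, edgeR adjusted p = 0.037) and not in SNI against sham (-0.41 ± 0.15, edgeR adjusted p = 0.051). Without the second or the third sham library, Hoxa5, Hoxb5, Hoxb7, Hoxb9, Hoxc8 and Hoxc9 were no longer called in SNI + G15 against sham. Hoxb5, Hoxb9 and Hoxc8 were also not called there without the first sham library. Without the SNI + G15 libraries in turn, calls were lost for Hoxa5, Hoxb5, Hoxb9 and Hoxc8 (the first left out), for Hoxa5, Hoxb9, Hoxc8 and Hoxc9 (the second) and for Hoxb5, Hoxb7 and Hoxc9 (the third).

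One anterior gene went the other way. Hoxd3, the neighbour of Hoxd1 in cluster D, was at 1.53, 1.46 and 1.48 FPKM in sham, at 2.15, 2.25 and 2.02 FPKM in SNI and at 2.57, 2.38 and 2.13 FPKM in SNI + G15. Each injured library exceeded each sham library. It rose 1.40-fold in SNI (log2 fold change 0.49 ± 0.13, edgeR adjusted p = 0.0112) and 1.53-fold in SNI + G15 (0.61 ± 0.13, edgeR adjusted p = 0.00394), both against sham. Cluster D thus held rises at Hoxd3, Hoxd9, Hoxd10 and Hoxd11, a fall at Hoxd1, and at Hoxd8 the smallest change of any tested member in SNI against sham (0.02 ± 0.06, with 8.33 to 8.77 FPKM in sham and 8.79 to 8.93 FPKM in SNI).

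The 5 members that were higher in SNI + G15 than in SNI were Hoxb2, Hoxb3, Hoxb7, Hoxc6 and Hoxc9, from hindbrain to thoracic-lumbar levels, and their changes were small. Hoxb2, which patterns the hindbrain, was at 7.36, 8.62 and 8.89 FPKM in sham, at 7.39, 7.04 and 7.23 FPKM in SNI and at 9.12, 8.58 and 9.98 FPKM in SNI + G15, a rise of 0.37 ± 0.08 on the log2 scale over SNI (edgeR adjusted p = 0.017). Hoxc9 rose by 0.34 ± 0.07 over SNI (edgeR adjusted p = 0.0169) and by 0.24 ± 0.08 over sham (edgeR adjusted p = 0.0393). Hoxb3 rose by 0.36 ± 0.08 over SNI (edgeR adjusted p = 0.0209), which left it at 0.08 ± 0.09 against sham. Hoxb7, a thoracic paralog, was at 6.68, 5.46 and 6.32 FPKM in sham, at 6.91, 5.96 and 6.44 FPKM in SNI and at 7.97, 7.58 and 9.77 FPKM in SNI + G15. The SNI + G15 libraries were above the rest, at 0.41 ± 0.12 over SNI (edgeR adjusted p = 0.0499) and 0.42 ± 0.13 over sham (edgeR adjusted p = 0.0235). Hoxc6 was at 1.08, 1.10 and 1.26 FPKM in sham, at 1.07, 1.04 and 1.09 FPKM in SNI and at 1.23, 1.43 and 1.21 FPKM in SNI + G15, and rose by 0.29 ± 0.08 over SNI (edgeR adjusted p = 0.0409). None of these 5 calls held under every alternative tried: without any 1 of the SNI libraries Hoxb2, Hoxb7, Hoxc6 and Hoxc9 were no longer called, and Hoxb3 was not called without the second or the third SNI library or without the second SNI + G15 library. Hoxb7 was also lost without the first or the third SNI + G15 library, and Hoxc6 without the second. By contrast the falls of Hoxc11, Hoxd11 and Hoxd10 held under all 15.

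The members that were not called were mostly held within narrow intervals. In SNI against sham, 11 of 17 had a 95% interval of the log2 fold change within 0.5 of 0 and 15 of 17 within 1. The same counts were, in SNI + G15 against SNI, 18 and 20 of 22, and in SNI + G15 against sham 10 and 15 of 18. The exceptions beyond 1 included Hoxa2 and Hoxa6, low genes whose libraries scattered: Hoxa6 ran from 0.21 to 1.08 FPKM in sham, from 0.37 to 0.80 FPKM in SNI and from 0 to 0.27 FPKM in SNI + G15. Hoxc4, a cervical paralog, had the smallest change in SNI + G15 against sham, at -0.06 ± 0.11, with 3.73 to 4.62 FPKM in sham and 3.63 to 4.41 FPKM in SNI + G15. The remaining tested members, called in no comparison, were Hoxa3 and Hoxa4 between 0.82 and 1.59 FPKM, Hoxa9 between 4.59 and 6.20 FPKM, Hoxb4 between 2.67 and 4.24 FPKM, Hoxc5 between 1.04 and 1.57 FPKM and Hoxd4 between 2.65 and 4.05 FPKM. Below the filter, Hoxb1 lay at 0.16 FPKM or less.

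Summed over the 37 members, Hox FPKM was 170 ± 5.62 (SD, n = 3) in sham, 155 ± 3.81 in SNI and 161 ± 6.24 in SNI + G15, and its make-up differed between the groups. The share of paralog number 11 was 0.651%, 0.725% and 0.759% in the sham libraries, 2.63%, 2.90% and 2.55% in SNI and 0.824%, 0.760% and 0.772% in SNI + G15. The 3 SNI libraries stood above the other 6. The share of paralog number 10 was 10.3% ± 0.400 in sham, 14.2% ± 0.102 in SNI and 13.1% ± 0.751 in SNI + G15. That of paralog number 8 went down, from 16.9% ± 0.298 in sham to 12.8% ± 0.260 in SNI and 13.2% ± 0.0733 in SNI + G15, as did that of paralog number 1, which rests on Hoxd1, from 10.9% ± 0.0403 to 6.88% ± 0.351 and 5.63% ± 0.423. These shares are descriptions without a test.

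**Figure D4:**
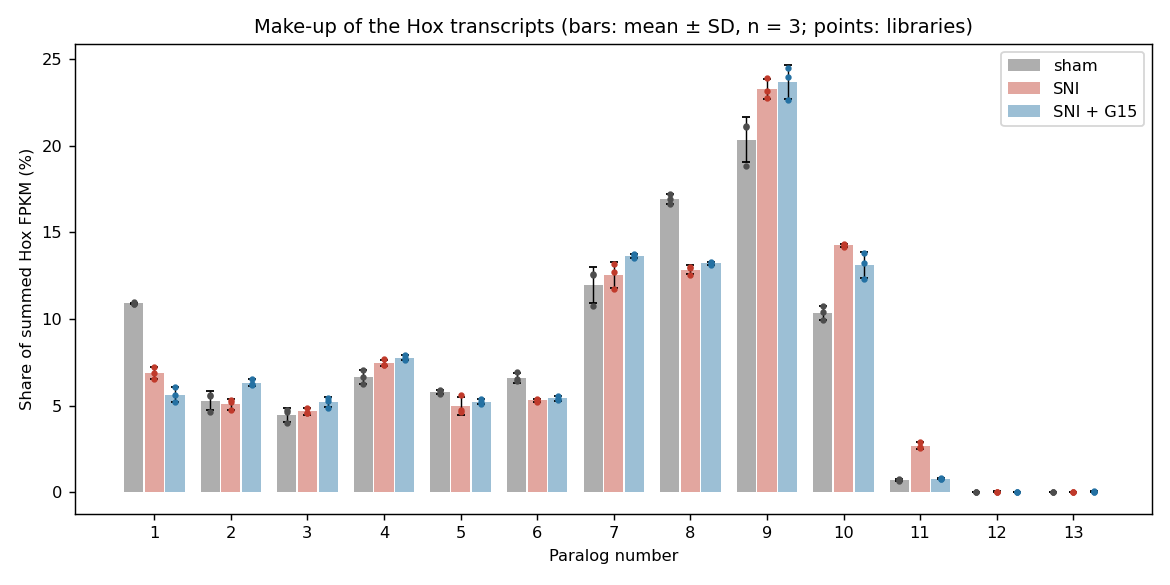
Share of the summed Hox FPKM (y axis, percent) taken by each paralog number (x axis) in sham, SNI and SNI + G15. Bars are group means with SD (n = 3) and points are libraries. Paralog number 11 takes 2.69% in SNI and 0.712% and 0.785% in sham and SNI + G15, while paralog numbers 1 and 8 take less in both injured groups than in sham.

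The mean paralog number weighted by FPKM was 6.48, 6.47 and 6.36 in the sham libraries, 6.90, 6.93 and 6.87 in SNI and 6.76, 6.73 and 6.84 in SNI + G15. The 3 groups did not overlap, and both injured groups lay above sham, by 0.463 in SNI and 0.341 in SNI + G15. This weight follows the most abundant members, among them Hoxd1, whose low paralog number pulls the mean down. Hoxd1 went from a mean of 18.4 FPKM in sham to 10.6 FPKM in SNI and 8.95 FPKM in SNI + G15. The weighted mean was not computed without Hoxd1, so it does not show a shift of the other members. With log2(FPKM + 1) as the weight the differences from sham were 0.269 and 0.0800, so that SNI + G15 was nearer to SNI with the first weight and nearer to sham with the other. By cluster, summed FPKM went from 58.5 ± 3.74 in sham to 44.1 ± 2.29 in SNI and 50.9 ± 3.84 in SNI + G15 for cluster B, while cluster D was at 43.5 ± 0.447, 43.2 ± 0.971 and 38.2 ± 0.306. Cluster A lay between 28.83 and 34.48 FPKM in all libraries. Cluster C was at 35.5 ± 0.180, 37.4 ± 0.291 and 40.6 ± 1.97 FPKM.

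The factors that work with Hox proteins at DNA, the TALE homeodomain cofactors, were tested as a list of 11, all of which passed the filter. Of these 3 rose and 2 fell in SNI against sham (45.5% called, beside 45.7% of all tested genes), with a median log2 fold change of -0.03. Meis3, a cofactor of posterior hindbrain patterning, was at 13.48, 15.93 and 14.55 FPKM in sham, at 32.28, 28.89 and 29.93 FPKM in SNI and at 32.80, 34.00 and 32.61 FPKM in SNI + G15. It rose by 1.04 ± 0.07 in SNI (edgeR adjusted p = 6.23e-07) and by 1.15 ± 0.07 in SNI + G15 (edgeR adjusted p = 8.96e-07), both against sham. Pknox1 rose by 0.37 ± 0.07 in SNI (edgeR adjusted p = 0.000996), its relative Pknox2 fell by 0.33 ± 0.05 (edgeR adjusted p = 0.000191), and Tgif1, a corepressor of the same homeodomain class, rose by 0.68 ± 0.12 in SNI (edgeR adjusted p = 0.001). By edgeR 0 of 11 were called in SNI + G15 against SNI, beside 15.2% of all tested genes. In SNI + G15 against sham 3 rose and 1 fell (36.4% called, beside 43.2%).

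Polycomb proteins keep Hox genes silent outside their domain, and 26 of 27 listed genes were tested. In SNI against sham 7 rose and 6 fell (median 0.07), in SNI + G15 against SNI 1 rose and 1 fell (0.04), and in SNI + G15 against sham 5 rose and 4 fell (0.03). The shares called were 50.0%, 7.7% and 34.6%, beside 45.7%, 15.2% and 43.2% of all tested genes. Ezh2, an enzyme that writes the silencing H3K27 mark, was at 1.82, 1.54 and 1.98 FPKM in sham, at 3.93, 4.08 and 3.94 FPKM in SNI and at 4.08, 4.25 and 4.08 FPKM in SNI + G15. It rose by 1.15 ± 0.11 in SNI (edgeR adjusted p = 1.06e-05). Rnf2, the ubiquitin ligase of the other Polycomb complex, rose by 0.47 ± 0.06 in SNI (edgeR adjusted p = 9.54e-05), and both genes stayed high in SNI + G15. Between the injured groups, Suz12, a core partner of Ezh2, fell by 0.25 ± 0.06 in SNI + G15 (edgeR adjusted p = 0.0343) and Pcgf1 rose by 0.60 ± 0.17 (edgeR adjusted p = 0.0434).

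Trithorax proteins and the H3K27 demethylases keep Hox genes active, and all 13 listed genes were tested. In SNI against sham 4 rose and 0 fell: Kmt2c, Kmt2a, Ash1l and Kdm6b, by 0.20 ± 0.06, 0.19 ± 0.06, 0.17 ± 0.05 and 0.23 ± 0.09 on the log2 scale. The share called, 30.8%, was below the 45.7% of all tested genes. Kmt2a, an activator of Hox expression, was at 3.38, 3.04 and 3.52 FPKM in sham, at 3.84, 3.80 and 3.94 FPKM in SNI and at 3.45, 3.28 and 2.84 FPKM in SNI + G15. It fell in SNI + G15 against SNI by 0.26 ± 0.07 (edgeR adjusted p = 0.0318), Kmt2c fell by 0.31 ± 0.05 (edgeR adjusted p = 0.00476) and Dpy30, a subunit of the same methyltransferase complexes, rose by 0.34 ± 0.08 (edgeR adjusted p = 0.0241). The share called in SNI + G15 against SNI was 23.1%, beside 15.2% of all tested genes. In SNI + G15 against sham 0 of 13 were called by edgeR, beside 43.2%. The list medians in the 3 comparisons were 0.08, -0.03 and 0.00.

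Of 18 listed genes of the signals that set the axial level in the embryo, 14 were in the deposited data and 8 passed the filter. Of these 8, 3 rose and 1 fell in SNI against sham (50.0% called, beside 45.7% of all genes). Fgf2, a growth factor that posteriorises neural tissue, rose by 2.56 ± 0.38 from 0.98, 0.16 and 0.75 FPKM in sham to 3.88, 3.93 and 3.68 FPKM in SNI (edgeR adjusted p = 0.000296). No sham library of Fgf2 reached an FPKM of 1, so it passed the filter through injured libraries. It is among the 3 that rose, and a fit without the filter is not given for it. Tgfbr1, a receptor for Gdf11 among other ligands, rose by 0.78 ± 0.05 (edgeR adjusted p = 7.28e-07). Gdf11 itself, which helps to place the lumbosacral Hox genes, fell by 0.15 ± 0.05 (edgeR adjusted p = 0.0249). In SNI + G15 against SNI 0 of 8 were called by edgeR, beside 15.2% of all tested genes. The 12 listed non-coding RNAs of the Hox clusters were not analysed here.

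Genes just outside the clusters were listed to set the Hox genes beside their neighbourhood, 3 protein-coding genes on each side of each cluster in the reference. Of these 24 genes 18 were tested. Between SNI and sham 4 rose and 4 fell (median 0.02), in SNI + G15 against SNI 2 rose and 2 fell (0.04) and in SNI + G15 against sham 5 rose and 1 fell (-0.06). The shares called were 44.4%, 22.2% and 33.3%, beside 45.7%, 15.2% and 43.2% of all tested genes. Skap2, an adaptor protein beside the anterior end of cluster A, rose by 0.76 ± 0.08 in SNI (edgeR adjusted p = 2.29e-05). Beyond the posterior end of cluster D, Lnpk, which shapes the endoplasmic reticulum, was at 16.94, 16.14 and 15.65 FPKM in sham, at 18.07, 18.19 and 17.74 FPKM in SNI and at 16.36, 15.53 and 14.80 FPKM in SNI + G15. Its fall of 0.18 ± 0.05 in SNI + G15 against SNI (edgeR adjusted p = 0.0457) compares with that of 1.49 for Hoxd11.

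Other cell types moved between the groups too. The summed level of 10 macrophage markers ran from 179 to 197 FPKM in sham, from 392 to 404 FPKM in SNI and from 414 to 452 FPKM in SNI + G15, and 9 of 10 and 10 of 10 rose against sham. That of 10 Schwann cell markers ran from 5459 to 5591 FPKM, from 3135 to 3197 FPKM and from 3360 to 3504 FPKM in the same order. The 12 fibroblast markers summed to 515 to 527 FPKM in sham, 488 to 490 FPKM in SNI and 662 to 685 FPKM in SNI + G15, and 10 of 12 rose in SNI + G15 against SNI. Fibroblasts also carry a positional Hox code. Genes of red blood cells (Alas2, Hba-a1, Hemgn, Kel and Slc4a1) were picked, after their values were seen, for being higher in SNI than in both other groups, so that their sum had to be highest there. The sum of these 5 was 6.90, 9.15 and 8.89 FPKM in sham, 31.40, 36.99 and 34.84 FPKM in SNI and 14.31, 15.68 and 12.51 FPKM in SNI + G15. Its SNI + G15 libraries all lay above sham. The part of red blood cells in the Hox results was not tested. The 8 mesothelium and meninges markers summed to 19.1 to 20.8 FPKM in sham, 16.9 to 17.3 FPKM in SNI and 17.1 to 20.5 FPKM in SNI + G15. Among them Upk3b was at 0 in 7 libraries and never above 0.05 FPKM. Of the 6 tested, 1 (Krt19) rose and 4 fell in SNI against sham (83.3% called, beside 45.7% of all tested genes). In SNI + G15 against SNI 2 rose and 1 (Krt19) fell (50.0%, beside 15.2%). Krt19 had means of 1.48 FPKM in sham, 3.37 FPKM in SNI and 1.15 FPKM in SNI + G15.

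Tissue around the ganglion was sought in the same way. The 10 skeletal muscle markers summed to between 12.99 and 15.29 FPKM over all libraries, and Myh2 was at 0 in 5 libraries. Of the 5 tested, 0 were called in SNI against sham, beside 45.7% of all tested genes. The 9 cartilage and bone markers summed to 12.9 to 13.6 FPKM in sham and to 9.95 to 10.9 FPKM in the injured groups, and Matn3 was at 0 in 6 libraries. The 8 spinal cord glia markers summed to between 10.7 and 15.0 FPKM in sham, between 36.3 and 39.6 FPKM in SNI and between 47.8 and 54.0 FPKM in SNI + G15. That sum was carried by Gfap, which satellite glia of injured ganglia also switch on. Olig1, Olig2, Aqp4 and Slc1a2, the members that did not pass the filter, stayed at 0.60 FPKM or below. Of the 4 tested members, Gfap among them, 1 rose and 1 fell in SNI against sham (50.0% called, beside 45.7% of all tested genes). In SNI + G15 against SNI 1 rose and 0 fell (25.0%, beside 15.2%). The 8 satellite glia markers summed to 4057 to 4428 FPKM, 3900 to 4087 FPKM and 4172 to 5111 FPKM, and the 8 endothelium markers to 65.4 to 70.5 FPKM, 66.6 to 68.4 FPKM and 81.2 to 88.6 FPKM, in sham, SNI and SNI + G15. The part of these cell types in the Hox results was not tested.

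Estimated counts that are not whole show that reads were shared out between genes or transcripts. This touched 17 members, among them all 10 of cluster A, 3 of cluster B, 2 of cluster C and 2 of cluster D. For Hoxa2, Hoxa5, Hoxa7, Hoxa10, Hoxb3, Hoxb6, Hoxc6 and Hoxc8 it held in all 9 libraries, so that their values are less certain. Hoxc11, Hoxd10, Hoxd11, Hoxc10, Hoxb8 and Hoxd1 had whole counts in every library. Of the 37 members 23 had 1 transcript in the annotation used, among them Hoxc11, Hoxd10, Hoxd11, Hoxc10 and Hoxd1. The 2 transcripts of Hoxc9 took changing shares, with NM_001100907.1 at 2.85, 8.35 and 5.46 FPKM in the sham libraries, while their sum stayed between 13.08 and 15.08 FPKM there.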

How the data were processed

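RNA-Seq of ipsilateral rat DRGs covered 9 libraries in 3 groups. For each gene and transcript the files hold, as deposited by the authors, FPKM, TPM (not used) and estimated counts, which need not be whole. The sham libraries stand in columns called Control 1 to 3, matched by elimination: the other titles with the word control are those of SNI samples, which have columns of their own. The submitters' processing notes list the mouse builds GRCm38 and mm10, whereas gene identifiers are rat, so the build of the values is unknown, and the aligner is not given in the sources used here. Deposited group averages were not used.

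After rounding, the estimated counts went into edgeR 4.0.16 (quasi-likelihood test with TMM factors, R 4.3.3) with the libraries of the 2 groups compared, over 14305 genes with FPKM of at least 1 in at least 1 library. Members below this filter came from a fit of 20107 genes. DESeq2 1.42.0 and limma 3.58.1 served as alternatives. On simulated counts of 14305 genes for SNI against sham, 183 of 200 genes changed by 1 (log2) were recovered, beside 28 false calls. The changed genes were not drawn from those with the lowest counts, so this check does not cover low members. The labels give separate samples, and p-values measure the spread between them. Full values are given for members called, the 5 most abundant, the ends of the code and the extreme changes, and for the most significant genes of other lists. RefSeq (GRCr8) held 36 of 37 members. Single values of some genes are not reported here. The members and lists were chosen with earlier results of these data known.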

Additional observations from a re-analysis of the deposited data

How the results depend on the processing

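Under all 15 alternatives, 10 of 13 members called in SNI against sham kept their call (Hoxb3 did not, nor under DESeq2 did Hoxa5 and Hoxd3), as did 6 of 12 in SNI + G15 against sham and 3 of 8 (Hoxc11, Hoxd10 and Hoxd11) in SNI + G15 against SNI. No called member changed direction. With each library left out in turn, the number of Hox genes called ran from 12 to 15, from 3 to 7 for SNI + G15 against SNI and from 7 to 9 for SNI + G15 against sham. DESeq2 and both limma-trend fits, on log2(FPKM + 1) and log2(FPKM + 0.1), each called 5 in SNI + G15 against SNI, and DESeq2 called 7 in SNI + G15 against sham. The cause was not tested. Libraries with the same replicate number did not deviate together (correlations from -0.128 to 0.0688 over the 9 pairs), so the numbers were not taken to pair them. With the replicate block the counts were 14 in SNI against sham, 6 in SNI + G15 against SNI (Hoxb7 and Hoxc6 lost) and 9 in SNI + G15 against sham (Hoxb5, Hoxb9, Hoxc8 and Hoxc9 lost).

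The FPKM-weighted mean paralog number, on which Hoxd1 weighs, differed by 0.463 (SNI minus sham), -0.122 (SNI + G15 minus SNI) and 0.341 (SNI + G15 minus sham). With log2(FPKM + 1) as the weight these were 0.269, -0.189 and 0.0800, and with each library left out they ran from 0.423 to 0.486, from -0.154 to -0.0985 and from 0.301 to 0.364.

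Some changes that were not called had the other sign under an alternative, all near 0. Hoxc9 in SNI against sham was 0.026 and 0.025 with limma-trend (pseudocounts of 0.1 and 1), and Hoxa5 in SNI + G15 against SNI was -0.0024 and -0.0010. With each library left out, Hoxa5 ran from -0.066 to 0.086, Hoxa7 from -0.019 to 0.12 and Hoxc10 from -0.021 to 0.13 in SNI + G15 against SNI, and Hoxc4 from -0.11 to 0.023 in SNI + G15 against sham. For Hoxa11 in SNI against sham, the edgeR adjusted p ran from 0.0231 to 0.0403 with each library left out, a check added after the data were seen, and DESeq2 gave no adjusted p. Depth limits the members numbered 11 to 13, which outside SNI rest on few reads, and 3 libraries per group limit the small changes.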

Other observations

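Retinoic acid is a signal that opens the anterior Hox genes in the embryo, and genes of its pathway were listed. Of 17 tested genes of 19 listed, 5 rose and 5 fell in SNI against sham, 6 rose and 0 fell in SNI + G15 against SNI, and 7 rose and 3 fell in SNI + G15 against sham, with median log2 fold changes of 0.08, 0.21 and 0.19 beside 0.00, 0.01 and 0.00 for all tested genes. The shares called were 58.8%, 35.3% and 58.8%, beside 45.7%, 15.2% and 43.2% of all tested genes. Crabp2, which hands retinoic acid to its receptors, rose by 1.08 ± 0.07 in SNI against sham and by a further 0.49 ± 0.07 in SNI + G15 against SNI (edgeR adjusted p = 7.69e-07 and 0.00299). Stra6, the retinol importer, was at 1.01, 0.84 and 1.38 FPKM in sham, at 1.86, 2.00 and 1.85 FPKM in SNI and at 3.85, 4.18 and 3.94 FPKM in SNI + G15. Cyp26b1, which degrades retinoic acid, was at 3.02, 2.87 and 3.14 FPKM in sham and between 0.91 and 1.17 FPKM in all 6 injured libraries, a fall of 1.53 ± 0.09 in SNI (edgeR adjusted p = 4.49e-07). Fibroblast markers, which also rose in SNI + G15 against SNI, moved beside the later rises, and their part was not tested.

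Among 6 listed genes of brain levels, where Hox genes are silent, En1 was the only one that passed the filter. En1, a homeodomain factor of the midbrain and hindbrain border and of spinal interneurons, was at 0.03, 0.00 and 0.03 FPKM in sham, at 2.89, 2.30 and 2.34 FPKM in SNI and at 2.07, 2.24 and 2.83 FPKM in SNI + G15. All 6 injured libraries stood above sham (edgeR adjusted p = 2.51e-07 in SNI), while Otx2 and En2 never exceeded 0.16 FPKM. En1 passed the filter through the injured libraries alone, and a fit without the filter is not given for it.

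After the values were seen, genes called and at least 1 higher on the log2 scale in SNI than in each of the other groups were counted. There were 24 of 14305 (0.168%), Hoxc11 and Hoxd11 among them. Both conditions use the same SNI libraries. Others were Cxcl9, a chemokine induced by interferon, at 4.21 to 5.61 FPKM in sham, 23.34 to 28.10 FPKM in SNI and 7.27 to 8.91 FPKM in SNI + G15, Krt19, a keratin of epithelia, at 1.18 to 1.70, 3.10 to 3.67 and 1.03 to 1.32 FPKM, and Slc4a1, the anion exchanger of red blood cells, at 0.67 to 0.85, 3.24 to 3.51 and 1.17 to 1.48 FPKM.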
